A study of Mus musculus with 45 samples.

Results

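Enteroendocrine cells are the hormone-secreting cells of the gut epithelium, scattered singly among absorptive and goblet cells. They sense nutrients, microbial products and bile acids at the lumen and release peptides or serotonin from dense-core granules. In the colon they are mostly L cells, which make glucagon-like peptides and peptide YY, and enterochromaffin cells, which make serotonin. The 10 genes described here were chosen by symbol from the RNA-seq count table. They encode the hormones or hormone precursors *Gcg*, *Pyy*, *Insl5*, *Nts*, *Cck* and *Sst*, the serotonin-synthesizing enzyme *Tph1*, the granule proteins *Chga* and *Chgb*, and the transcription factor *Neurod1*. All 10 of the 10 genes were found among 24918 entries and passed the low-count filter, which left 12961 entries for testing.

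The series asked which changes diet-induced obesity brings to colonic epithelium and which of them persist after weight loss. All mice were male C57BL/6 animals (C57BL/6J in the study's methods) that began their diets at 6 weeks of age and stayed on them for 20 weeks in all. Control mice (LF) ate a 10% fat diet for 20 weeks, obese mice (HF) ate a 60% fat diet for 20 weeks, and formerly obese mice (HFLF) ate the 60% fat diet for 15 weeks and the 10% fat diet for the last 5 weeks. RNA-seq, whole-genome bisulfite sequencing (WGBS) and sequencing of bisulfite PCR amplicons (BSP-seq) each had 5 mice per group, and the epithelium was stripped from the whole colon with EDTA, so each library mixes all epithelial cell types and all colon segments.

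RNA-seq libraries held 15230391 to 22762095 counts, and the 10 genes together took 0.0175% to 0.0417% of them. The 8 epithelial markers were high in every library (*Epcam*, 1975 to 2219 CPM, the count relative to the library total after TMM scaling). Genes of other cells that can make the same hormones were also examined. Of 6 pancreas genes, 5 had no count in any library, including *Ins1* and *Ins2*. The sixth, *Cela1*, averaged 436.8 CPM. Of 12 genes of enteric neurons and glia, 10 averaged under 1 CPM and *Sox10* had no count. The mast cell protease gene *Cpa3* ranged from 0 to 0.434 CPM. On the same list of 10 genes, *Mcpt1*, *Cma1* and *Mcpt2* averaged 3.30, 1.68 and 1.27 CPM and were at 0 in no library, and *Kit* averaged 90.3 CPM. In bulk epithelium, fewer enteroendocrine cells and less hormone mRNA per cell cannot be told apart.

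Promoter sequences are shown for 4 of the genes as a description. Whether their motifs bear on the variation between mice described below was not tested. They come from RefSeq (GRCm38.p6, the same assembly as mm10) and hold the 250 bases before the transcription start, written on the strand of the gene. Capitals mark 3 motifs that were searched on both strands. The first was the cyclic AMP response element, TGACGTCA, which reads the same on both. Another was the E-box CAGATG, of the kind bound by NEUROD1, which reads CATCTG on the other strand. The last was the promoter element TATAAA, which reads TTTATA on the other strand. None of the matches in the 10 genes overlapped another motif.
Gcg, chr2:62483654-62483903, minus strand: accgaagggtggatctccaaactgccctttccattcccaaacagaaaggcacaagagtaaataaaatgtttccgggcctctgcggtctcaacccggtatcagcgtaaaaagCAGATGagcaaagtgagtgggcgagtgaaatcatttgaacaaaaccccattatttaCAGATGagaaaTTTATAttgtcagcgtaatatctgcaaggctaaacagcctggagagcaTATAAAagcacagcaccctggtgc
Pyy, chr11:102107777-102108026, minus strand: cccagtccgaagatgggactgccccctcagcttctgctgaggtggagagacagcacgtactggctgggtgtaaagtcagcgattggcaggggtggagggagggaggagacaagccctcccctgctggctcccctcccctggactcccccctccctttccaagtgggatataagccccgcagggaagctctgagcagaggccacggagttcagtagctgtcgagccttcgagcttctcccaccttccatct
Sst, chr16:23890845-23891094, minus strand: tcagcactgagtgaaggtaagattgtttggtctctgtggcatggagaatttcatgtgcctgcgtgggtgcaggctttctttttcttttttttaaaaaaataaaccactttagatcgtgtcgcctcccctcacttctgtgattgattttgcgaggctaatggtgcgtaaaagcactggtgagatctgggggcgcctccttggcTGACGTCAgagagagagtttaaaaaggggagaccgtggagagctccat
Chgb, chr2:132781392-132781641, plus strand: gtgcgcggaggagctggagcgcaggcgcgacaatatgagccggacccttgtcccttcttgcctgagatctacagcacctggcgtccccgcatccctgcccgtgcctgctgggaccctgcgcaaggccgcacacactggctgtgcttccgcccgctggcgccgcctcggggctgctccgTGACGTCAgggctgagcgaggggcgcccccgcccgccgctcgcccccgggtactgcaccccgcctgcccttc

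RefSeq gave 13 such windows for the 10 genes, since some genes have several starts. *Gcg*, which encodes proglucagon, held 2 E-boxes and 2 TATAAA matches, of which the nearer lay 24 bases before the start. The cyclic AMP response element was found in *Sst*, starting 48 bases before the start, and in *Chgb*, 72 bases before it. Among the 13 windows, 2 held this element, against 1.55% of 32851 windows of all genes. E-boxes were in 3 of the 13 windows (*Cck*, *Gcg* and 1 of the *Insl5* windows) against 14.4% of all, and TATAAA in 3 (*Gcg* and both *Insl5* windows) against 12.4%. *Pyy* held none of the 3 in either of its windows. The RefSeq start of *Chgb* lies 364 bases from the start given with the counts, while the windows shown for *Gcg*, *Pyy* and *Sst* begin at the start given there.

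Transcript levels were first ranked per length of exon, as CPM per kilobase over the 15 mice. *Pyy*, the satiety peptide of L cells, was the highest, at 48.5 ± 8.12 CPM per kilobase (SD, n = 15). *Chgb* followed at 42.8 ± 15.0, *Gcg* at 33.3 ± 12.8 and *Chga* at 29.0 ± 7.82. *Pyy* was above *Chgb* in 12 of 15 mice and *Gcg* above *Chga* in 10 of 15, so the order within these pairs was not the same in every mouse, while *Chgb* was above *Gcg* in all 15.

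*Insl5*, an L cell peptide of the relaxin family found in the distal gut, came next at 16.3 ± 5.66 CPM per kilobase. Neurotensin (*Nts*) stood at 8.18 ± 2.22, *Tph1* at 4.85 ± 1.13 and somatostatin (*Sst*), the inhibitory peptide of D cells, at 3.47 ± 0.798. The factor gene *Neurod1* was at 1.23 ± 0.313 and *Cck*, which is mainly a hormone of the small intestine, at 0.469 ± 0.134. In this lower part of the order each gene was above the next in all 15 mice, except that *Tph1* was above *Sst* in 14. *Cck* averaged 9.53 counts per library, so counting error alone was 32.4% of its mean, and *Neurod1* (51.9 counts) and *Sst* (56.9 counts) were also low.

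Diet comparisons were made with edgeR over all 12961 entries. Calls followed the cutoffs of the study, which ask for a fold change of more than 1.2 upward or downward, p below 0.01 and adjusted p below 0.25. Obese against control mice gave 0 calls among the 10 genes, where 1.58% of all genes were called, and 0 of the 10 had an unadjusted p under 0.05 (10.9% of all genes). The 1.58% stood for 205 genes, and that number depended on single libraries. Dropping control mouse 1, 2 or 4 gave 130, 44 or 323 genes, and dropping obese mouse 1, 2, 3, 4 or 5 gave 135, 331, 40, 85 or 55. DESeq2 also called 0 of them. Formerly obese against control mice gave 0 calls (3.72% of all genes) by either tool, with 1 gene (*Pyy*) at an unadjusted p under 0.05 (16.7% of all genes). Formerly obese against obese mice gave 1 call, *Pyy*, which was lower (2.65% of all genes were called, and 1.42% were called lower). The 343 genes called there fell to 167 when formerly obese mouse 5 was dropped, and to 195 or 209 for obese mouse 1 or 2. The 5 mice of one group overlapped the 5 of the other for every one of the 10 genes in all 3 comparisons, against 2.47%, 3.62% and 3.38% of all genes whose groups did not overlap. The 3 comparisons share their groups and are not independent.

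**Figure D1:**
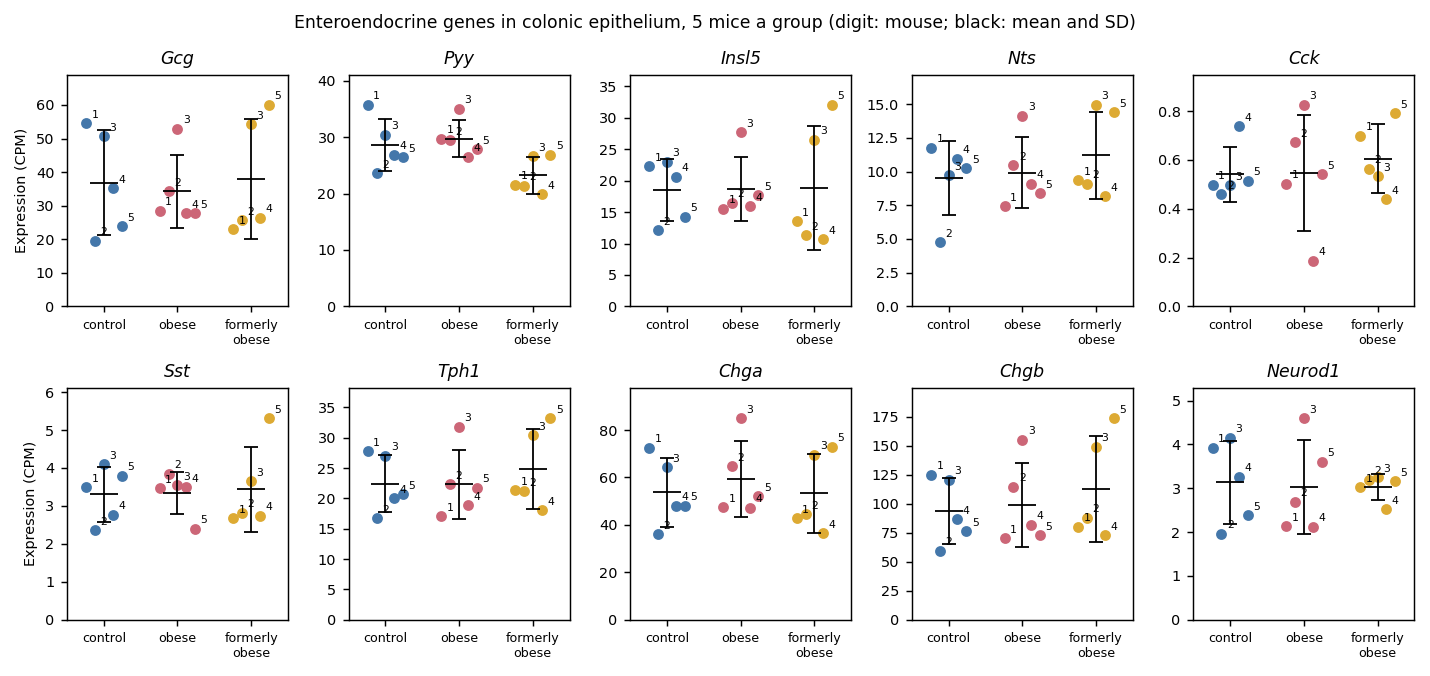
Expression of the 10 genes (CPM, linear axes from 0) in 5 control, 5 obese and 5 formerly obese mice. Each point is a mouse with its replicate number, and black lines are the mean and SD. Groups overlap for every gene, and mice such as obese replicate 3 and formerly obese replicate 5 stand high for most of them.

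With diet as the only term, *Pyy* alone among these genes was called, in formerly obese against obese mice (2.65% of all genes were called there). *Pyy* lost this call in some of the alternative settings given below. Its levels in control mice 1 to 5 were 35.8, 23.6, 30.4, 26.9 and 26.4 CPM. Obese mice had 29.8, 29.5, 35.0, 26.6 and 27.9 CPM, and formerly obese mice had 21.6, 21.4, 26.7, 19.8 and 26.9 CPM. Formerly obese replicates 1, 2 and 4 were below every mouse of the other groups, while replicates 3 and 5 reached the lower end of the obese range. The group means were 28.6 ± 4.66, 29.7 ± 3.23 and 23.3 ± 3.27 CPM (SD, n = 5 each). Formerly obese mice were 0.784-fold of obese mice, with a log2 fold change of -0.35 (SE 0.11, 95% interval -0.59 to -0.12, edgeR adjusted p = 0.163). Against control mice the log2 fold change was -0.30 (SE 0.11, interval -0.53 to -0.06, edgeR adjusted p = 0.178), and its unadjusted p of 0.0165 missed the cutoff. That comparison was called with the replicate block (edgeR adjusted p = 0.118), and also without control replicate 2 or formerly obese replicate 3 or 5. Between obese and control mice it was 0.05 (interval -0.18 to 0.29).

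The call for *Pyy* was a narrow one. Its adjusted p in formerly obese against obese mice ran from 0.0440 to 0.328 over 25 alternative settings, with log2 fold changes of -0.41 to -0.28. The lowest adjusted p came with the granule gene score described below as a covariate, a setting added after the data were seen. The call was lost when the trend of counts over GC content was removed (log2 fold change -0.29, adjusted p = 0.328). Leaving out obese replicate 1, 2 or 3, or formerly obese replicate 1, 2 or 4, also ended it. The medians of posterior Hox genes, which mark the distal colon, were also lower in formerly obese mice. Of 7 tested, 1 was called lower in formerly obese than in obese mice (median log2 fold change -0.22) and 5 were called lower than in control mice (median -0.45). In obese against control mice 1 was called lower (median -0.13), where *Pyy* had a log2 fold change of 0.05. Of 9 tested small intestine genes, 0 were called in formerly obese against obese mice (median log2 fold change 0.20). Against control mice, 5 were called higher in formerly obese mice (median 0.63) and 2 in obese mice (median 0.39). Over all genes, 2.65%, 3.72% and 1.58% were called in these 3 comparisons. Within diets, *Pyy* and the mean log2 CPM of the posterior Hox genes had r = -0.37 over 15 mice (permutation p = 0.162, adjusted p = 0.223) and rho = -0.23 (permutation p = 0.416, adjusted p = 0.462), with r = -0.58 without the 2 farthest mice. The part of these genes in the *Pyy* difference was not tested.

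L cell genes other than *Pyy* did not pass in any comparison. *Gcg* in control mice 1 to 5 was 54.6, 19.5, 50.7, 35.3 and 23.9 CPM. In obese mice it was 28.6, 34.3, 52.9, 27.8 and 27.7 CPM, and in formerly obese mice 23.0, 25.7, 54.3, 26.4 and 60.1 CPM. Within each group the highest mouse had 1.91 to 2.80 times the lowest, a wider range than the difference between any 2 group means. The log2 fold change of *Gcg* was -0.10 in obese against control mice (interval -0.76 to 0.55), 0.05 in formerly obese against control mice (-0.60 to 0.70) and 0.15 against obese mice (-0.50 to 0.80). These intervals include changes of more than 1.4-fold in either direction. For *Insl5* the levels were 22.3, 12.1, 23.0, 20.6 and 14.3 CPM in control mice, 15.5, 16.5, 27.7, 16.0 and 17.7 in obese mice, and 13.5, 11.3, 26.5, 10.7 and 32.1 in formerly obese mice. Formerly obese mice thus held both the lowest and the highest *Insl5* level, with group means of 18.5, 18.7 and 18.8 CPM. *Nts* ranged from 4.78 to 11.8 CPM in control, 7.42 to 14.2 in obese and 8.17 to 15.0 in formerly obese mice, with log2 fold changes of 0.06, 0.24 and 0.18 in the 3 comparisons.

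*Tph1*, the rate-limiting enzyme of serotonin synthesis in enterochromaffin cells, was at 22.4 ± 4.77, 22.4 ± 5.70 and 24.9 ± 6.57 CPM in control, obese and formerly obese mice (SD, n = 5 each). Its log2 fold changes were -0.01, 0.15 and 0.15, and the widest of their intervals went from -0.40 to 0.39. Chromogranin A (*Chga*) was at 53.8 ± 14.6, 59.3 ± 16.1 and 53.3 ± 16.8 CPM. Chromogranin B (*Chgb*), which with chromogranin A packs the granule core, was at 93.5 ± 28.4, 98.8 ± 36.0 and 112.7 ± 45.6 CPM. *Sst* had means of 3.30 ± 0.721, 3.35 ± 0.552 and 3.44 ± 1.12 CPM. *Neurod1* had 3.14 ± 0.951, 3.03 ± 1.07 and 3.03 ± 0.297 CPM, and *Cck* had 0.541 ± 0.112, 0.546 ± 0.237 and 0.605 ± 0.140 CPM. The differences between these means were smaller than 1 SD of any group for all 6 genes from *Tph1* to *Cck*. Over the 10 genes the median log2 fold change was 0.02, 0.05 and 0.09 in the 3 comparisons, while that of all genes tested lay within 0.01 of 0 in each.

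**Figure D2:**
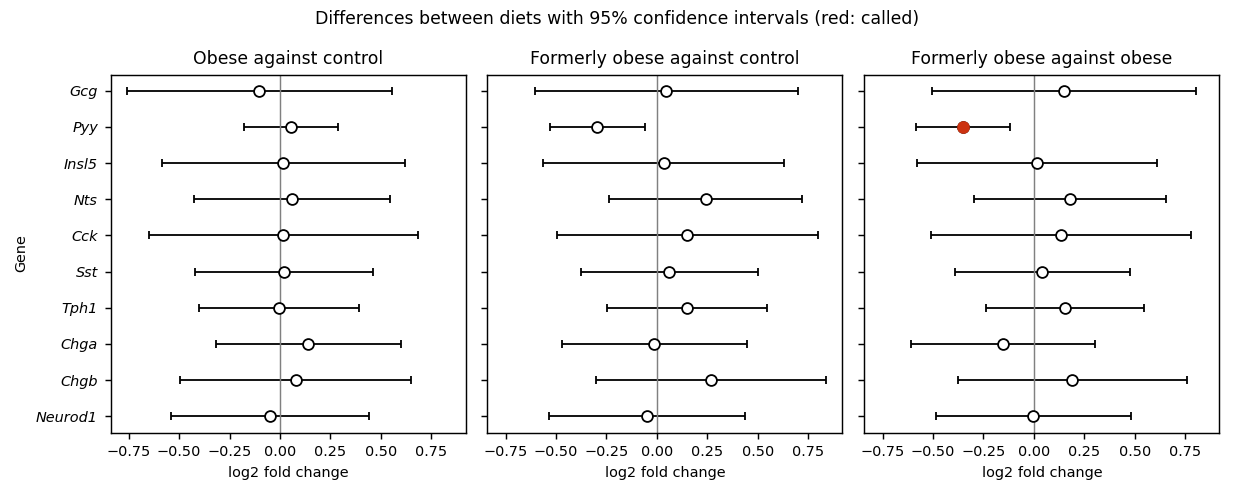
Log2 fold change of the 10 genes in obese against control, formerly obese against control and formerly obese against obese mice, with 95% confidence intervals from edgeR. *Pyy* in formerly obese against obese mice, in red, was the one value called, and the intervals of the other genes span 0.

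Spread between mice on one diet was large for most of these genes. edgeR's biological coefficient of variation (the spread beyond counting error) was 33.7% for *Gcg*, 30.6% for *Insl5*, 29.4% for *Chgb*, 24.4% for *Nts* and 23.8% for *Chga*. The median over all genes tested was 8.30%. Because low genes have a higher estimate, each was also placed among genes with a mean level within 2-fold. *Gcg* and *Chgb* were above 99.8% of such genes, *Insl5* and *Chga* above 99.4%, *Tph1* (20.3%) above 97.2% and *Nts* above 96.9%. *Pyy* was the least variable of the 7 genes averaging over 100 counts, at 11.9%, above 88.6% of like genes. *Neurod1* (22.3%), *Sst* (19.9%) and *Cck* (17.3%) were above 78.1%, 73.2% and 19.1%. The spread of *Insl5* was uneven among diets, with SDs of log2 CPM of 0.41, 0.34 and 0.73 in control, obese and formerly obese mice, and *Neurod1* had 0.45, 0.47 and 0.14. These differences in spread were not tested.

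**Figure D3:**
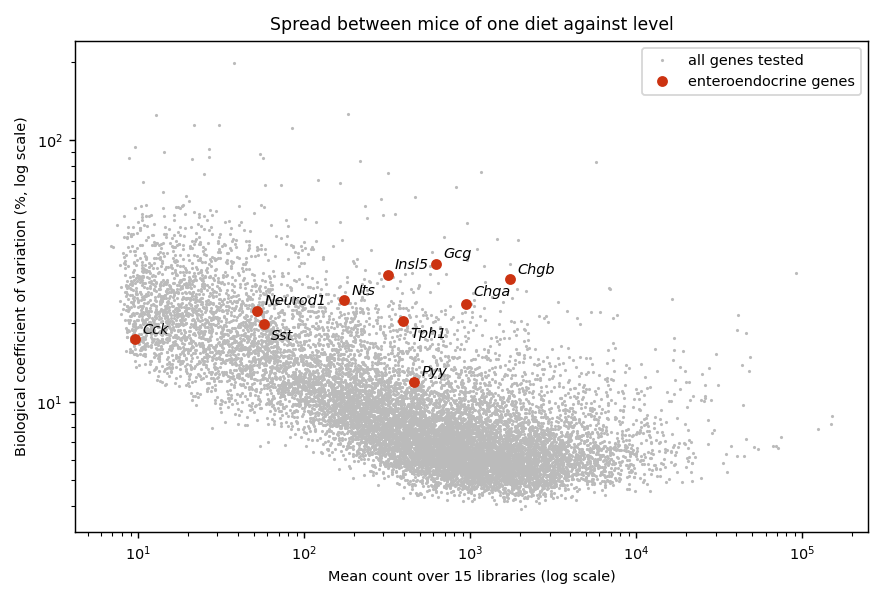
Biological coefficient of variation between mice of one diet (percent, log scale) against mean count (log scale) for 12961 genes in grey and the 10 enteroendocrine genes in red. The hormone and granule genes with over 100 counts lie in the upper part of the cloud at their level, with *Gcg* at 33.7% and *Pyy* at 11.9%.

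The mice that were high were the same for most of the genes. *Chga* in control mice 1 to 5 was 72.6, 36.0, 64.4, 48.0 and 48.1 CPM. Obese mice had 47.5, 64.8, 85.1, 47.2 and 52.2 CPM, and formerly obese mice had 42.8, 44.5, 69.6, 36.4 and 73.1 CPM. Obese replicate 3 and formerly obese replicate 5 were above their group mean for 10 of 10 genes, control replicates 1 and 3 and formerly obese replicate 3 for 9 of 10, and control replicate 2 and formerly obese replicate 4 for 0 of 10. Obese replicate 3 stood at a median of 0.58 above its group mean on the log2 scale, and control replicate 2 at a median of -0.55. Because each mouse was set against the mean of its own group, every group must hold values above and below 0 for each gene. These deviations therefore do not compare the diets.

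**Figure D4:**
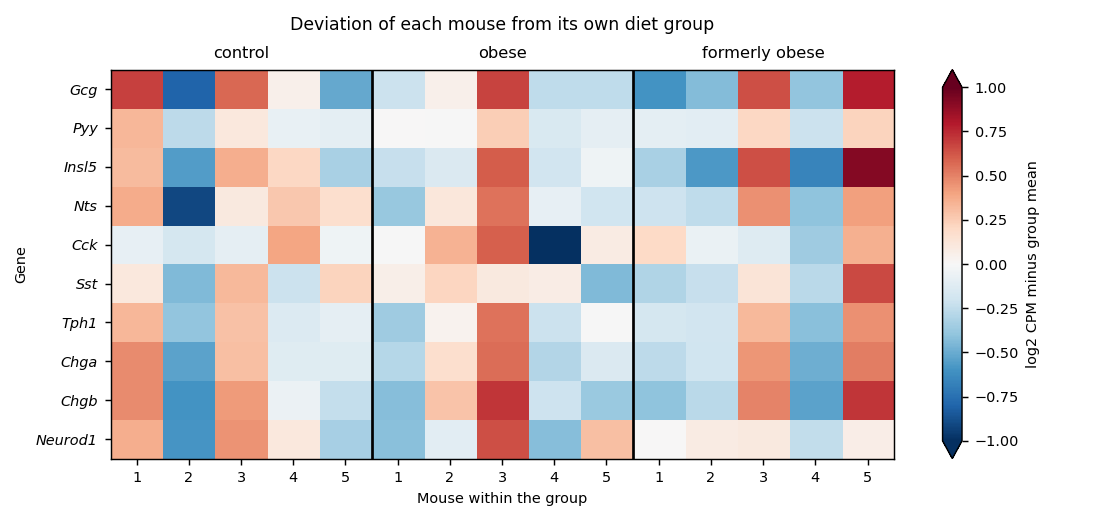
Log2 CPM of each mouse minus the mean of its own diet group, for the 10 genes (rows) and 15 mice (columns). Most cells of a column share a colour, red in control replicates 1 and 3, obese replicate 3 and formerly obese replicates 3 and 5, and blue in control replicate 2 and formerly obese replicate 4.

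After removal of the group means, all 45 pairs of the 10 genes were positively correlated over the 15 mice, with a median Pearson r of 0.75 (range 0.14 to 0.98). In 35 of the 45 pairs the permutation p, from 100000 shuffles of mice within groups and adjusted over the 45 pairs, was under 0.05, both for Pearson's r and for Spearman's rho. The 10 pairs that missed it were the 9 with *Cck* and the pair of *Sst* and *Neurod1* (r = 0.19). *Chga* and *Tph1* had r = 0.98 and rho = 0.98 (both permutation p = 2e-05, adjusted 0.00027 and 0.0009), and r stayed at 0.97 without the 2 mice farthest from the median. *Chga* and *Chgb* had r = 0.98 (permutation p = 5e-05, adjusted p = 0.00032) and rho = 0.93 (permutation p = 0.00017, adjusted p = 0.001), with r = 0.97 without those 2 mice.

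Genes of L cells and of enterochromaffin cells moved together. *Gcg* and *Tph1* had r = 0.91 (permutation p = 0.00034, adjusted p = 0.00081) and rho = 0.79 (permutation p = 0.0016, adjusted p = 0.0035), with r = 0.87 without the 2 farthest mice. *Pyy* and *Gcg* had r = 0.93 (permutation p = 0.00012, adjusted p = 0.00055) and rho = 0.89 (permutation p = 0.00017, adjusted p = 0.001), with r = 0.92 without those mice. Among the 7 genes that averaged over 100 counts, all 21 pairs passed, with a median r of 0.90, and r without the 2 farthest mice stayed at 0.77 or higher. Leaving out each mouse in turn left 28 to 35 of the 45 pairs, the lowest without control replicate 2.

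**Figure D5:**
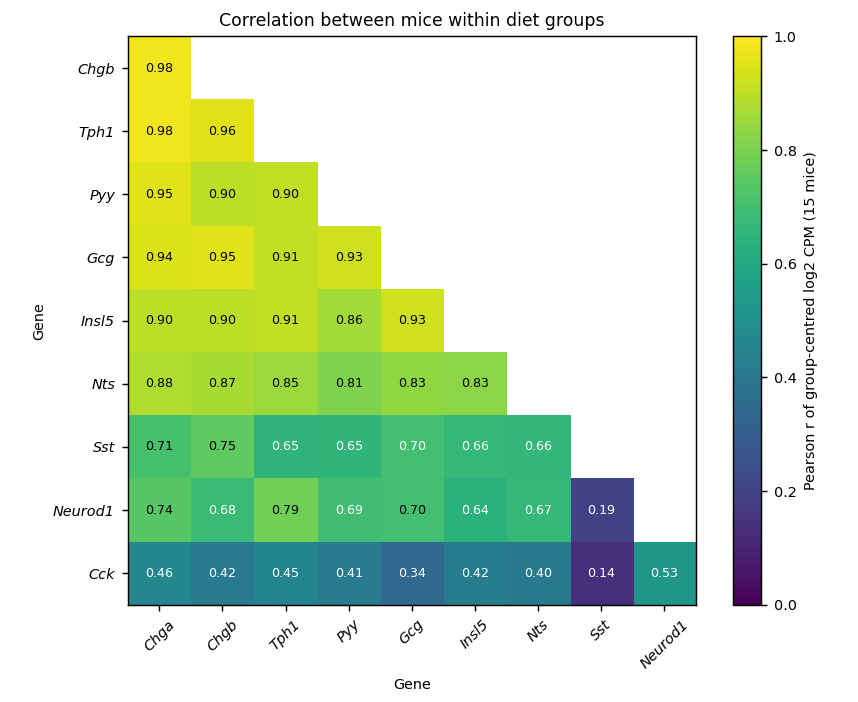
Pearson r between each pair of the 10 genes over 15 mice, from log2 CPM centred within each diet group. The 7 genes with over 100 counts form a block with r of 0.81 to 0.98, while *Cck* stays between 0.14 and 0.53.

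Measures of sampling and of other cell types were compared with each gene in the same way. None of the 10 genes passed the adjusted threshold against the score of the posterior Hox genes (median r -0.42), small intestine genes (0.44), enteric neurons and glia (-0.26), mast cells (0.11), immune cells (0.04), smooth muscle and fibroblasts (0.60) or the library total (0.44). Each gene score averaged only the tested genes of its list. These were 7 posterior Hox, 9 small intestine, 3 neuron and glia, 4 mast cell and 4 immune genes. The smooth muscle and fibroblast score held 3 genes, *Col1a1*, *Col3a1* and *Dcn*, while *Acta2* and *Des* were not tested. Against that score, 7 of the 10 had an unadjusted permutation p under 0.05. All 8 genes of that list, tested or not, summed to 2.03 to 10.3 CPM in control mice. The sums were 5.68 to 16.4 CPM in obese and 5.95 to 25.7 CPM in formerly obese mice. Of the 8, 6 averaged under 1 CPM. Their part in the shared variation of the hormone genes was not tested.

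Among 11027 genes with at least 50 counts on average, those most like the 10 genes in this variation were named by a fixed rule, 3 for each gene. *Cpe*, carboxypeptidase E, which trims peptide hormones in the granule, was the gene outside the 10 nearest to *Gcg* (r = 0.98 over 15 mice), *Chgb* (0.93) and *Tph1* (0.89). *Pappa2* was the nearest to *Chga* (0.92), and *Galnt10* the nearest to *Pyy* (0.92). *Insl5* lay nearest to *Scarb1* (0.92), *Nts* to *Aldh1b1* (0.91), *Sst* to *B3gnt9* (0.88), *Neurod1* to *Sc5d* (0.88) and *Cck* to *1190007I07Rik* (0.80). Correlations above 0.8 were reached by 0.163% of the compared genes for *Chga*, 0.372% for *Gcg* and 0.608% for *Insl5*. Among all 12961 entries, the 50 nearest to *Chga*, to *Gcg* and to *Pyy* each held 6 of the other 9 genes. The number was also 6 for *Chgb*, *Insl5* and *Nts*, and 7 for *Tph1*. It was only 2 for *Neurod1*, 1 for *Sst* and 0 for *Cck*.

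The 22 tested genes of granules and prohormone processing, such as *Cpe*, *Scg2* and *Pcsk1*, gave a score (their mean log2 CPM) that holds none of the 10 genes. Entered as a covariate after the data had been seen, this score had a positive slope for all 10 genes, from 0.71 for *Cck* to 2.08 for *Gcg*. Of the 10 genes, 5 had an adjusted p under 0.05 (*Chga*, *Chgb*, *Gcg*, *Pyy* and *Tph1*), against 0.201% of all genes with a positive slope at that threshold, and *Chga* ranked first of 12961 genes by its p-value (slope 1.56, SE 0.19, edgeR adjusted p = 0.0051). *Pyy* had a slope of 0.74 (SE 0.12). The 3 tested smooth muscle and fibroblast genes also had positive slopes at an unadjusted p under 0.05 (median 2.94), as did 2 of 4 immune genes, with 0 of either list at an adjusted p under 0.05, and their part in the score's slopes was not tested. At an equal score, *Pyy* was lower in formerly obese mice than in control mice (log2 fold change -0.30, edgeR adjusted p = 0.0249) and than in obese mice (-0.33, edgeR adjusted p = 0.0440), and was called in both comparisons, where 3.93% and 2.8% of all genes were. In obese against control mice, where 1.64% were, its log2 fold change was 0.03 and was not called. The score itself averaged 1.85, 1.90 and 1.86 in control, obese and formerly obese mice.

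Other genes linked to these cells were examined as 6 lists, though bulk libraries do not show which cells express them. Slopes on the granule score were -0.34 (*Slc6a4*), -0.28 (*Pam*), -0.17 (*Htr4*), -0.00025 (*Maoa*), 0.06 (*Adra2a*), 0.55 (*Slc18a1*) and 1.66 (*Pcsk1n*) for the genes edgeR called. The score itself holds *Pam* and *Pcsk1n*, so their slopes are not independent of it. The genes described first, none of which the score holds, had 0.71 (*Cck*) to 2.08 (*Gcg*). *Maoa* averaged 1518 CPM and *Pam* 202.3 CPM. Whether the called changes arose in hormone cells was not tested. Over all 12961 genes, edgeR called 1.58%, 3.72% and 2.65% in the 3 comparisons. An unadjusted p under 0.05 was reached by 1407, 2169 and 1731 of them. Of 11 genes for other gut hormones tested by DESeq2, 0 were called in any comparison. edgeR tested 4 and called 0, with 1, 1 and 0 at an unadjusted p under 0.05. Secretin (*Sct*) had the smallest p-value in both comparisons with control mice, with 7.67 ± 2.54, 11.8 ± 2.32 and 11.6 ± 4.22 CPM in control, obese and formerly obese mice and log2 fold changes of 0.62 (edgeR adjusted p = 0.375) and 0.60 (adjusted p = 0.225). In formerly obese against obese mice the smallest p-value was that of *Tac1*, the substance P precursor (log2 fold change -0.18, interval -0.62 to 0.26). Gastrin (*Gast*) had no count, and ghrelin (*Ghrl*) and *Gip*, hormones of the stomach and upper intestine, averaged 0.186 and 0.016 CPM. Of 23 genes for enteroendocrine transcription factors tested by DESeq2, 0 were called in any comparison. edgeR tested 21 and called 0, with 1 in each comparison at an unadjusted p under 0.05. These were *Foxa1* (log2 fold change 0.14 in obese against control mice), *Foxa2* (-0.20 in formerly obese against control mice) and *St18* (-0.42 in formerly obese against obese mice).

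In obese against control mice, granule and prohormone processing genes gave 1 call of 22, *Pam*, where 1.58% of all genes were called. *Pam* encodes the enzyme that amidates the ends of peptide hormones such as peptide YY. It fell from 222.3 ± 28.2 to 180.7 ± 13.8 CPM (SD, n = 5 each), a log2 fold change of -0.30 (SE 0.08, edgeR adjusted p = 0.182), and the groups overlapped. Of the 22, edgeR called 0 in formerly obese against control mice, where 1 (*Pcsk1n*) had an unadjusted p under 0.05 and was called by DESeq2. Over all genes in that comparison, edgeR called 3.72%, and 16.7% had an unadjusted p under 0.05. In formerly obese against obese mice *Pcsk1n*, an inhibitor of the prohormone convertase PCSK1, was called lower by edgeR (2.65% of all genes were called). DESeq2 gave it no adjusted p. It was low in both groups, at 0.436 ± 0.199 CPM (range 0.219 to 0.641) against 1.34 ± 0.590 CPM (0.437 to 1.95), and the groups overlapped. Its log2 fold change there was -1.60, with an SE of 0.40 and an edgeR adjusted p of 0.0812.

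Among 10 tested genes of serotonin handling, edgeR called 1 in obese and 2 in formerly obese mice against control mice. It called 1 in formerly obese against obese mice. DESeq2, which tested 12 genes of this list, called 1, 3 and 1. Over all genes, edgeR called 1.58%, 3.72% and 2.65% in these comparisons. The serotonin transporter *Slc6a4* takes serotonin up into epithelial cells. It was 48.8 CPM in control mice (range 41.3 to 66.7) and 33.3 CPM in obese mice (28.8 to 39.5). These groups did not overlap, as for 2.47% of all genes. Its log2 fold change was -0.55 (SE 0.13, edgeR adjusted p = 0.134). In formerly obese mice it averaged 38.2 ± 6.43 CPM and overlapped the control mice, a log2 fold change of -0.35 (SE 0.13, edgeR adjusted p = 0.174) that edgeR did not call and DESeq2 called. *Slc18a1*, a vesicle monoamine transporter of enterochromaffin cells, was lower in formerly obese than in control mice (-0.47, SE 0.16, adjusted p = 0.126), and *Adra2a*, an adrenergic receptor gene, was higher (0.67, SE 0.20, adjusted p = 0.0954). *Maoa*, which breaks serotonin down, was 1337 ± 113.7 CPM in obese and 1699 ± 131.5 CPM in formerly obese mice. These groups did not overlap, as for 3.38% of all genes, and its log2 fold change was 0.35 (SE 0.09, edgeR adjusted p = 0.101). *Tph1*, which makes serotonin, was called in none of the comparisons.

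Of 8 genes for nutrient receptors tested by edgeR and 16 tested by DESeq2, 0 were called in any comparison. Over all genes, edgeR called 1.58%, 3.72% and 2.65% in the 3 comparisons. At an unadjusted p under 0.05 by edgeR there was 1, *Ffar3*, a receptor for short-chain fatty acids. Its log2 fold change was 0.60 in formerly obese against control mice, where 16.7% of all genes had such a p-value. *Ffar4*, a receptor for long-chain fatty acids, had the smallest p-value in the other comparisons, at 0.22 in obese against control mice (interval -0.02 to 0.46) and -0.22 in formerly obese against obese mice (-0.46 to 0.02). Among 11 tested genes for hormone receptors and inactivating peptidases, edgeR called 1 in formerly obese against control mice, where 3.72% of all genes were called. This was *Htr4*, a serotonin receptor gene, which was lower (38.6 ± 6.98 against 50.5 ± 3.93 CPM). It had a log2 fold change of -0.39, an SE of 0.11 and an edgeR adjusted p of 0.0726. Its log2 fold change in obese against control mice was -0.24, which was not called. In formerly obese against obese mice edgeR called 0 of the 11, and DESeq2 called 0 of the 18 it tested. *Npy1r*, a receptor gene for neuropeptide Y and peptide YY, had the smallest edgeR p-value there (-0.24, interval -0.47 to -0.01).

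DNA methylation was examined through the list of 8199 differentially methylated regions (DMRs) between obese and control mice, 4123 with more methylation in obese mice (hyper-DMRs) and 4076 with less (hypo-DMRs). It gives a position and a direction but no value per mouse. Within 50 kb of the ends of the 10 genes, 4 genes had a DMR, against 43.8% of all genes tested, and 2 had one inside the gene, against 12.3%. *Pyy* (chr11:102106676-102107776, minus strand) held a hyper-DMR of 10 bases with 2 CpGs, at chr11:102106746-102106755. It lies in the last exon, beyond the coding sequence, 1026 bases after the start. *Pyy* mRNA was not called in obese against control mice, as given above. *Neurod1* (chr2:79452641-79456636, minus strand) held a hypo-DMR and a hyper-DMR of 5 bases each in its coding exon, at chr2:79454303-79454307 and chr2:79454482-79454486. The bases around the 3 DMRs are given on the plus strand of mm10, with each DMR in capitals, because 2 DMRs of opposite direction lie close together in one exon.
Pyy hyper-DMR, chr11:102106736-102106765: tctgggtgtcCGAGACACCGagatatgaag
Neurod1 hypo-DMR, chr2:79454293-79454322: aggcgtgtggCGGCGgcttgacgtggaaga
Neurod1 hyper-DMR, chr2:79454472-79454501: tgcaggcagcCGGCGaccaaattggtagtg
A further 2 hyper-DMRs lay outside the 10 genes, 26034 bases upstream of *Sst* and 37929 bases upstream of *Nts*. None of the BSP-seq CpGs lay within 50 kb of any of the 10 genes, so no methylation value per mouse was at hand for them.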

How the data were processed

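Colonic epithelium of 15 mice was profiled by RNA-seq. Per the study's methods, TopHat placed paired reads on mm10, HTSeq-count tallied them by gene, and the authors deposited those counts unscaled. The strand mode and annotation release are not given in the sources used here. No other gene entry overlapped the span of a member gene. BSP-seq values, as deposited, are the methylated fraction at each CpG, and WGBS was deposited as a list of DMRs from the Rao-Scott test. The deposited DESeq2 tables with fold changes and p-values were not used.

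Entries were filtered with filterByExpr, scaled by TMM and fitted by the quasi-likelihood test of edgeR 4.0.16 (R 4.3.3) over all 15 libraries with diet as the only term. P-values were adjusted by Benjamini-Hochberg over 12961 entries. Log2 CPM used a prior count of 2. Libraries totalled 15230391 to 22762095 counts. Intervals are 95% and come from the fit. The labels give a mouse number within each group and no batch. No replicate pair within a group was closer than 5.72 in chi-square per degree of freedom, where sampling noise alone gives about 1, and none was treated as a copy. Scripts were tested on simulated data.

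The 10 genes and all gene lists were chosen with earlier results of these data known. Genes outside the 10 were named where a comparison called them, or where they had the smallest p-value of an enteroendocrine list. Genes alike in their variation were the 3 with the highest r. Alternatives covered DESeq2 1.42.0, scaling, filters, prior count, GC content, replicate block, groups in the fit, cutoff and each library left out, and the granule score was added after the data were seen.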

Additional observations from a re-analysis of the deposited data

Results flagged for a closer look

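Within groups of 5 mice, 4 of 30 sets of values (10 genes in 3 groups) held a mouse whose gap to its nearest neighbour exceeded 0.71 of the range, where chance gives about 5%. Obese replicate 3 was high for *Gcg* (52.9 CPM, the next mouse 34.3) and for *Insl5* (27.7 CPM, the next 17.7), and these genes are correlated, so the flags are not independent. *Cck* was high in control replicate 4 (0.739 CPM, the next 0.515), and *Sst* was low in obese replicate 5 (2.40 CPM, the next 3.46), both at low counts.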

How the results depend on the processing

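Of 744 alternative values for the 10 genes in the 3 comparisons, 731 kept their side of the threshold, 5 gained a call, 8 lost one and 0 reversed a call, and all gains and losses were of *Pyy*. The sign differed in 79 values that were called in neither fit. In formerly obese against control mice the number of genes called went from 0 to 1 with the granule score as a covariate and ranged from 0 to 1 when each replicate was left out (1, *Pyy*, without control replicate 2 or formerly obese replicate 3 or 5). In formerly obese against obese mice it went from 1 to 0 with the GC trend removed and with adjusted p under 0.05 alone, and ranged from 0 to 1 with replicates left out. With a window of 10 kb in place of 50 kb, 2 genes in place of 4 had a DMR. The 35 correlated pairs became 28 to 35 without a replicate, and the median SD of log2 CPM, 0.41, became 0.36 to 0.43. The cause of these changes was not tested.

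Whether the replicate numbers pair the mice cannot be settled with 5 same-number pairs for each pair of groups. Correlations of deviations between mice with the same number ran from -0.14 to 0.33, -0.14 to 0.20 and -0.23 to 0.22 in the 3 pairs of groups. Between mice with different numbers they ran from -0.30 to 0.28, -0.34 to 0.17 and -0.25 to 0.29. With the replicate block, the number called in formerly obese against control mice was 1 (*Pyy*, log2 fold change -0.30, edgeR adjusted p = 0.118), and the numbers in the other comparisons were unchanged at 0 and 1. The block moved the calls over all genes from 205 to 252, from 482 to 537 and from 343 to 346. Depth limits *Cck*, *Neurod1* and *Sst*, which averaged 9.53 to 56.9 counts.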
